A study of Homo sapiens with 10 samples.

Results

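The comparison described here is CD64 against CD32 cross-linking at 2 h in U937 cells, and it was chosen by title: 2 arrays of cells cross-linked through CD64 for 2 h and 2 arrays of cells cross-linked through CD32 for 2 h, 4 of the 10 arrays in the series. U937 is an established human monocytic line, and all arrays came from U937 cells that had been differentiated with IFN gamma, so both groups share the line and that treatment. The labels give the receptor and the time and no other agent, and they do not say which antibody cross-linked the receptor. The 2 arrays at 6 h for each receptor are used as a second time point, and the 2 control arrays, which have no cross-linking listed, are not used. The second array of each group is labelled a duplicate without a statement that it came from a separate culture, so the p-values measure the spread between these arrays, which may be technical. A CD32 2 h array carries CD332 in its source name, and its title and description, which say CD32, were followed.

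CD64 (Fc gamma receptor I) is the high-affinity receptor for IgG on monocytes, it signals through the gamma chain FCER1G, and interferon gamma raises its amount. CD32 is a low-affinity receptor that binds IgG in immune complexes and exists as an activating form, CD32A (FCGR2A), with an activation motif in its own tail, and an inhibitory form, CD32B (FCGR2B). Cross-linking of the activating forms recruits Src and Syk kinases and leads to phagocytosis, the oxidative burst and the release of cytokines and chemokines.

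Expression was measured as linear signal intensity per probe set, a group of short probes for 1 transcript, on a 1-colour oligonucleotide array. Signals below 36.8, the percentile 25 of the values, were raised to this floor before log2 was taken. A probe set was tested where it lay above the floor on at least 2 of the 4 arrays of 2 h, which left 6849 probe sets, 6152 of them with 1 gene symbol, for 6054 genes. The test was limma's moderated test with Benjamini-Hochberg adjustment over all 6849, and a probe set is called higher or lower in CD64 at an adjusted p under 0.05. Differences are log2 CD64 minus log2 CD32, so a positive value is higher after CD64 cross-linking, and each group has n = 2. Adjusted p-values in the text come from that fit. A gene named with its p or fold kept its call in each of the 4 fits that left out 1 array of 2 h, unless the highest adjusted p of those fits is given beside it.

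The receptors differed widely at 2 h. Of 6849 probe sets, 1426 were called, or 20.8%: 571 were higher in CD64 (8.34%) and 855 were lower (12.5%). The counts of every gene list below are to be read against these shares. Of the calls, 417 passed 2-fold, 106 of them higher and 311 lower, and 4-fold was passed by 6 that were higher and 12 that were lower. In 4007 probe sets, or 58.5% of those tested, the 2 CD64 arrays did not overlap with the 2 CD32 arrays, and in all 1426 calls they did not. The number of probe sets called at 2 h was 821 without CD32 array 2 and up to 947 without another array, and 605 probe sets were called in all 4 such fits.

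The split between higher and lower depends on how the arrays are scaled. The median log2 difference of all tested probe sets was -0.13 on the values as deposited, -0.00219 after quantile normalization and 0.0934 after each array was centred on its median. Quantile normalization thus moved the median by 0.129 and median centring by 0.225, and differences are to be read relative to that shift. The share of calls that were higher in CD64 was 40.04% as deposited, 47.0% after quantile normalization, 48.2% after cyclic loess and 70.3% after median centring. Of the 1426 calls, 1144 kept their call and direction after quantile normalization, 1188 after cyclic loess and 980 after median centring. The shift went with signal: the median difference was -0.23 in the dimmest of 4 equal bins, -0.28 and -0.13 in the next bins and 0.065 in the brightest, where 411 probe sets were called higher and 339 lower.

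The arrays themselves were alike in scale and differed in some control values. Trimmed mean signals were 500.5 to 500.6 on the 4 arrays, median signals were 119 and 136 for CD32 and 114 and 101 for CD64, and 21.9% to 29.6% of an array's probe sets did not rise above the floor. Log2 signals correlated across probe sets (not independent of each other) at 0.973 within CD32, 0.974 within CD64 and 0.948 to 0.959 between the groups. Of 9 probe sets for bacterial transcripts added to the samples, 8 read lower in CD64, with differences of -0.71 to 0.00765, and actin probes at the 3' end over those at the 5' end gave 1.44 and 1.67 for CD32 and 1.86 and 1.75 for CD64. The same ratio for GAPDH was 0.814 and 0.943 for CD32 and 0.860 and 1.04 for CD64, so the groups overlapped for it. The part of these control values in the results was not tested. Of 11 markers of the monocytic line with a probe set of their own, 9 were above the floor on all 4 arrays, and MPO and CD14 were above it on 0 arrays, so the monocyte marker CD14 was not seen in either group. In bulk RNA, fewer cells of a type and less RNA per cell cannot be told apart.

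**Figure D1:**
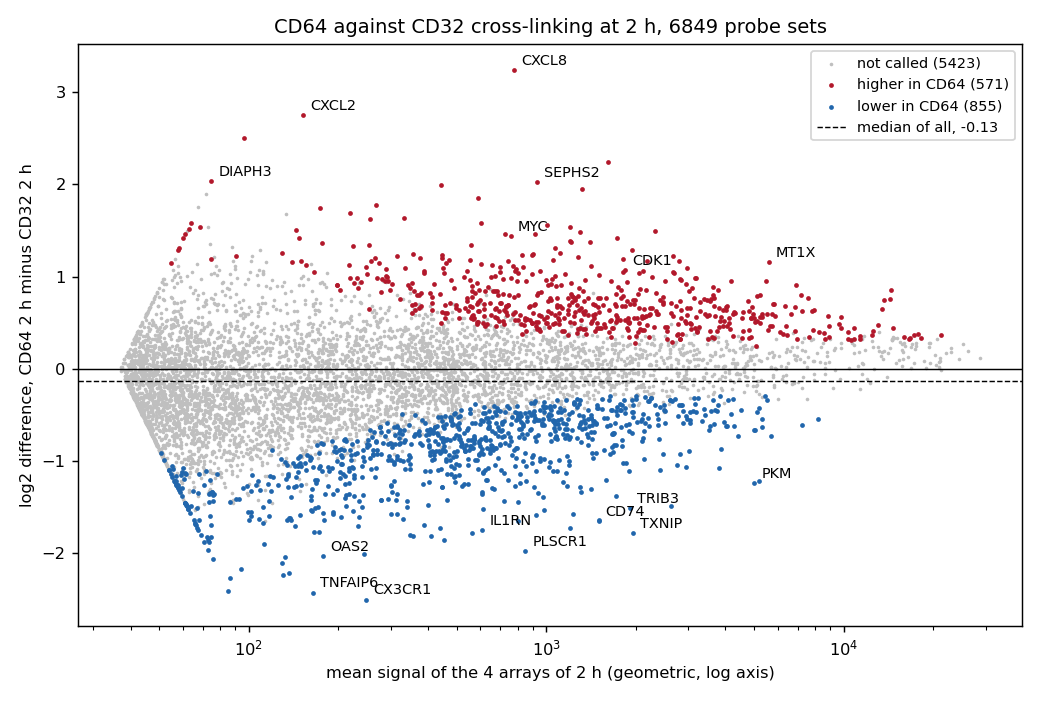
Log2 difference of CD64 minus CD32 at 2 h (y axis) against the geometric mean signal of the 4 arrays (x axis, log scale) for 6849 probe sets; red points were called higher in CD64 (571), blue points lower (855), grey points were not called, and the dashed line is the median of all, -0.13. CXCL8 lies highest at 3.24 and CX3CR1 lowest at -2.51; the straight edges on the left come from values set to the floor of 36.8.

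The 2 chemokine genes that were higher in CD64, CXCL8 and CXCL2, attract neutrophils, and CXCL8 had the largest difference of all probe sets called higher. The signal of CXCL8, interleukin 8, was 247 and 262 on the CD32 arrays and 2347 and 2456 on the CD64 arrays, a 9.44-fold higher level (log2 difference 3.24 ± 0.108 SE, adjusted p = 2.96e-07). CXCL2, which binds the same neutrophil receptor CXCR2, read 52.1 and 65.8 against 437 and 355 in the same order, 6.73-fold higher (log2 difference 2.75 ± 0.337 SE, adjusted p = 0.000516). For both genes the CD64 arrays lay close together and far above both CD32 arrays. The interferon-induced T cell chemokines went the other way: CXCL9 read 6467 and 6225 against 4035 and 3955 (1.59-fold lower). CXCL10 read 8758 and 9235 against 5752 and 5974 (1.53-fold lower). Of 19 chemokine genes tested, 2 were higher and 2 lower, and the counts were the same under quantile normalization and median centring. These are 10.5% each way, near the 8.34% and 12.5% of all probe sets.

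The promoters of the leading pair of chemokine genes are shown because NF-kappaB sites in them are textbook control elements of neutrophil chemokines; each is the 250 bases before the transcript start in RefSeq (GRCh38.p14), 5' to 3' on the gene's strand, with matches to the NF-kappaB letters GGNNTTTCC on either strand in capitals.
CXCL8 (chr4:73740319-73740568, plus strand): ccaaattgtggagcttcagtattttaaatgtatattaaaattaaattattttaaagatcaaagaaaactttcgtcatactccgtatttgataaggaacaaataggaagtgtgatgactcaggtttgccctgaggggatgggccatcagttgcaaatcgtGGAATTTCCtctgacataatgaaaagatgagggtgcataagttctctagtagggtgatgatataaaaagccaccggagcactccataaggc
CXCL2 (chr4:74099196-74099445, minus strand): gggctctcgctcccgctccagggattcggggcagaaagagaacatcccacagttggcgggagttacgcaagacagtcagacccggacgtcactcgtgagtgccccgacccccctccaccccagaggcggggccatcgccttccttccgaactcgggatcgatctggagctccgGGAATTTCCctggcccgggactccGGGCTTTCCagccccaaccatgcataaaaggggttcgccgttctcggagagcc

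The CXCL8 match begins 91 bases before the start, and CXCL2 has 2 matches, beginning 77 and 53 bases before it. In windows of 250 bases before to 50 after the start, 6.26% of 35116 RefSeq promoters and 7.09% of those of genes tested held these letters. The share was 8.64% of the promoters of genes called higher in CD64 and 8.11% of those of genes called lower. A match of letters is a description and does not show that a factor binds there.

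Other genes with the largest higher values had varied roles. DIAPH3, a formin that builds actin filaments, was under the floor on both CD32 arrays and read 129 and 177 on the CD64 arrays, at least 4.1-fold higher (not tested without CD64 array 1 or without CD64 array 2). SEPHS2, which makes the selenium donor for selenoproteins, read 569 and 372 against 1968 and 1779 (log2 difference 2.02 ± 0.183 SE, adjusted p = 9.53e-05). PPM1B, a protein phosphatase, read 199.5 and 245 against 930.5 and 831 (3.98-fold). FUT4, the fucosyltransferase that makes the CD15 antigen, read 276 and 346 against 1044 and 1199 (3.61-fold). The CD64 values of these genes did not overlap with the CD32 values, as in every call. UBQLN2, a ubiquitin-binding shuttle protein, was 3.42-fold higher, RP2, linked to retinitis pigmentosa, 3.08-fold, GTPBP4, a ribosome assembly GTPase, 2.94-fold, and DR1, a repressor of TATA-dependent transcription, 2.91-fold. HHLA1 was 2.91-fold higher (highest adjusted p = 0.111 when CD64 array 2 was left out), with 1 CD32 array under the floor, so that its fold depends on the floor, and GRM8, a glutamate receptor, at least 2.87-fold (highest adjusted p = 0.164 when CD64 array 2 was left out).

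Among the genes with the lowest differences, several are known from monocyte activation. CX3CR1, the fractalkine receptor, read 642 and 545 on the CD32 arrays and 89.4 and 120.5 on the CD64 arrays, 5.7-fold lower in CD64 (log2 difference -2.51 ± 0.221 SE, adjusted p = 8.07e-05). TNFAIP6, a hyaluronan-binding protein that inflammation induces, read 351.3 and 413 against 79.8 and 62 (5.42-fold lower, -2.44 ± 0.212 SE). TREM1, an activating receptor that amplifies inflammation, read 252 and 342 against 38.4 and 103 (4.66-fold lower). The 2 CD64 values of TREM1 were themselves far apart, and both lay under the CD32 values, as in every call of a lower gene. PILRA, an inhibitory myeloid receptor, was under the floor on both CD64 arrays and read 206 and 186 on the CD32 arrays, at least 5.32-fold lower (not tested without CD32 array 1 or without CD32 array 2). SLAMF1, a receptor of lymphocytes and activated phagocytes, read 188 and 252 against 48.1 and 69.9 (3.75-fold lower). VAMP2, a membrane fusion protein, was 4.74-fold lower, LAMB3, a laminin chain, 4.53-fold, THEM6 4.34-fold (highest adjusted p = 0.0904 when CD64 array 2 was left out), EPHA1, an ephrin receptor, at least 4.85-fold (highest adjusted p = 0.13 when CD32 array 2 was left out), and UNC119 at least 4.2-fold (highest adjusted p = 0.112 when CD64 array 2 was left out). TNS1, a focal adhesion protein, was 3.68-fold lower with 1 CD64 array under the floor, but another of its probe sets read 33.3 and 97.2 against 113 and 56.6 and was not called (0.42, adjusted p = 0.626), so the probe sets disagree.

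**Figure D2:**
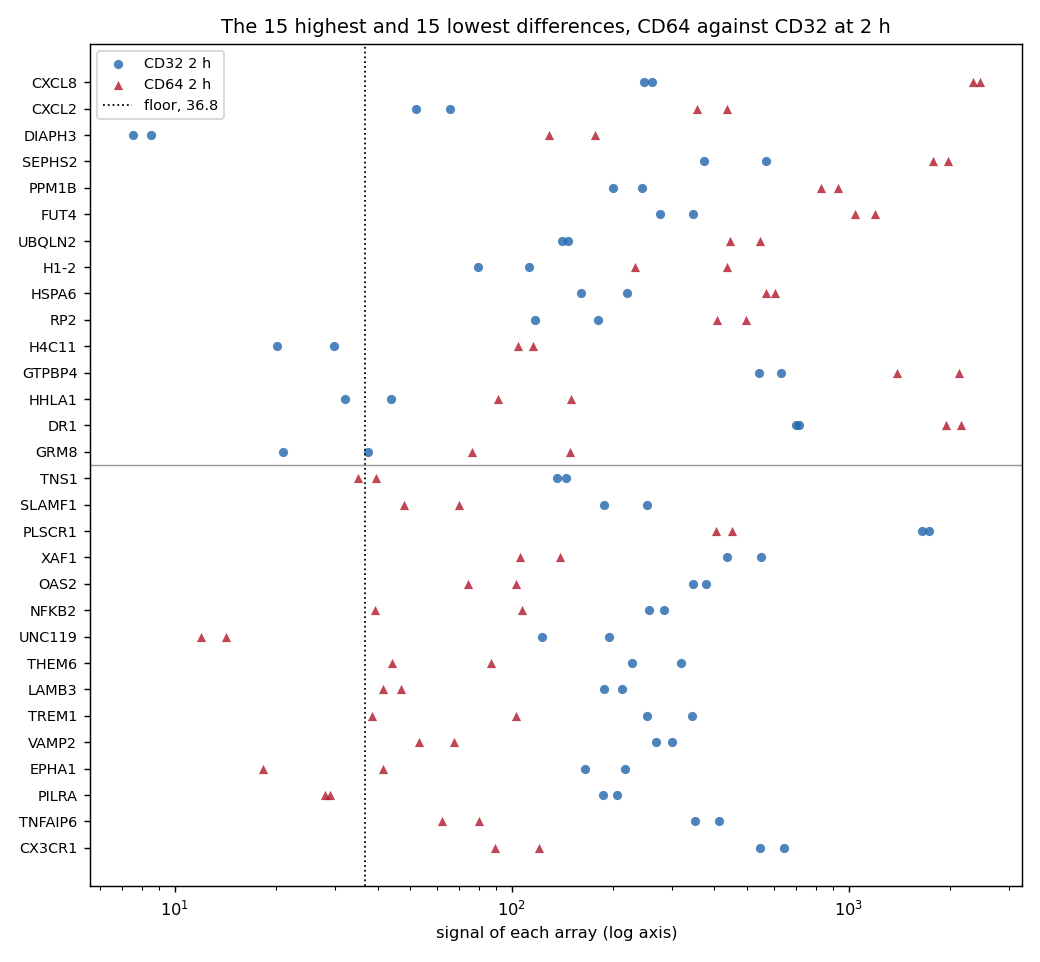
Signal of each of the 4 arrays (x axis, log scale) for 30 genes, the 15 of highest and 15 of lowest log2 difference among those called; circles are CD32 arrays, triangles CD64 arrays, and the dotted line is the floor of 36.8. In every row, as in every call, the 2 symbols of a group lie on the same side of the other group. DIAPH3, H4C11, PILRA and UNC119 have a whole group under the floor.

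Interferon-stimulated genes, which encode antiviral proteins, were lower after CD64 than after CD32 cross-linking. Of 63 tested, 37 were lower and 3 higher, a share of 58.7% against the 12.5% of all probe sets that were lower, with a median difference of -0.64. After quantile normalization 33 were lower and 3 higher, after median centring 32 and 4, and between 33 and 34 were lower when 1 array was left out (0 to 2 higher with 1 array left out, fewest without CD64 array 1). The scramblase PLSCR1 read 1647 and 1734 on the CD32 arrays and 404 and 450.1 on the CD64 arrays (3.96-fold lower, -1.99 ± 0.0948 SE). OAS2, a sensor of double-stranded RNA that activates RNase L, read 346 and 376 against 74.3 and 103 (4.11-fold lower). The related OAS1 and OAS3 were 2.92-fold and 2.23-fold lower. XAF1, a pro-apoptotic interferon target, read 551 and 435 against 106 and 139 (4.04-fold lower). ISG15, a ubiquitin-like modifier, read 1937 and 2326 against 654 and 766 (3-fold lower). Each of these genes had both CD64 arrays under both CD32 arrays, as in every call of a lower gene. IFIT1, which binds viral RNA, read 499.9 and 417 against 147 and 196 (2.69-fold lower). IFIT3 read 519.6 and 421 against 172 and 218 (2.41-fold lower). IFIT5 read 171 and 120.1 against 69.8 and 39.3 (2.74-fold lower, highest adjusted p = 0.141 when CD32 array 1 was left out). The kinase EIF2AK2 (PKR), which halts translation, was 2.66-fold lower, and the RNA sensor RIGI 2.3-fold lower (highest adjusted p = 0.204 when CD32 array 2 was left out), with its CD32 arrays at 136 and 299.7. Among bright members, IFITM1, which blocks viral entry, read 5604 and 5509.7 against 2463 and 2784 (2.12-fold lower). NMI, an interferon-induced protein, read 4626 and 4386 against 2853 and 3091 (1.52-fold lower).

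Regulators of the interferon system were among the lower genes. IRF7, the factor that drives type I interferon genes, read 768 and 961 against 438 and 369.9 (2.13-fold lower). IRF9, a DNA-binding factor of the interferon response, read 647 and 906 against 402 and 441 (1.82-fold lower). The 3 members that were higher in CD64 were GBP1, an interferon gamma-induced GTPase, at 365 and 236 against 899.5 and 508 (log2 difference 1.20 ± 0.285 SE, adjusted p = 0.0142, highest adjusted p = 0.101 when CD32 array 2 was left out), SP100, a nuclear body protein (0.93, highest adjusted p = 0.143 when CD64 array 1 was left out), and IFI16, a DNA sensor (0.29, highest adjusted p = 0.21 when CD32 array 1 was left out). Of these 3, 0 kept the call in all 4 fits that left out 1 array. Of 35 JAK, STAT, SOCS and cytokine receptor genes tested, 7 were lower and 0 higher; at an unadjusted p under 0.05 it was 12 and 0. Of all probe sets 12.5% were lower, and the list's count was 4 after median centring (4 to 6 lower with 1 array left out, fewest without CD64 array 1). STAT3, the main factor below interleukin 6 and interleukin 10, read 1582 and 1782 on the CD32 arrays and 594 and 562 on the CD64 arrays (2.9-fold lower, -1.54 ± 0.116 SE). IL2RG, the common gamma chain of several interleukin receptors, read 2641 and 2929 against 1064 and 1062 (2.62-fold lower). IL4R read 612 and 652 against 330.1 and 261 (2.15-fold lower). IL10RA read 815 and 722 against 341 and 444 (1.97-fold lower). The kinase JAK1 was 1.52-fold lower (highest adjusted p = 0.0598 when CD64 array 1 was left out).

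The IFIT1 promoter is shown because its pair of interferon response elements is the textbook example of how this gene group is switched on; it is the 250 bases before the start in RefSeq (GRCh38.p14), with matches to TTTC, any 2 bases and TTTC, on either strand, in capitals.
IFIT1 (chr10:89392373-89392622, plus strand): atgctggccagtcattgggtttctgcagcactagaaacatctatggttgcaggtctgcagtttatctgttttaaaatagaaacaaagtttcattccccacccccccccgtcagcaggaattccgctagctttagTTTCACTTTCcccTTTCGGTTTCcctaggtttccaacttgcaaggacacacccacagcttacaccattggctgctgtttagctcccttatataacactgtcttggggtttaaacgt

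The matches begin 116 and 103 bases before the start. Of 41 promoters found for 29 of the 37 lower interferon-stimulated genes, 24 held these letters, or 58.5%. The window was 250 bases before to 50 after the start. The share was 3.57% of all 35116 promoters and 3.45% of the 7507 promoters of genes tested. It was 5.61% of the promoters of all genes called lower in CD64. The list holds known interferon-stimulated genes, so a high share is built into it. Members of the list that were not called were not compared, so the share does not bear on the receptor difference.

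MHC class II genes, whose products present peptides to CD4 T cells and which interferon gamma induces through CIITA, were lower as well. Of 13 tested, 5 were lower and 0 higher (6 and 0 at an unadjusted p under 0.05), with a median of -0.82. The share lower was 38.5%, against 12.5% of all probe sets. After quantile normalization the median was -0.50, and the counts were the same after quantile normalization, after median centring and with any 1 array left out. CD74, the invariant chain, read 2608 and 2716 on the CD32 arrays and 799 and 888 on the CD64 arrays (3.16-fold lower, -1.66 ± 0.1 SE). HLA-DRA read 2144 and 2035 against 756 and 895 (2.54-fold lower). HLA-DPB1 read 195 and 186 against 75 and 49.8 (3.11-fold lower). HLA-DRB1 read 2971 and 2998 against 1405 and 1624 (1.98-fold lower). HLA-DMA, which loads peptides, was 1.99-fold lower. HLA-D genes share long stretches of sequence, so probe sets may read more than 1 of them. Of 18 MHC class I and peptide transport genes, 3 were lower and 1 higher as deposited, and 6 and 0 after quantile normalization. TAPBP (tapasin), which joins class I molecules to the peptide transporter, read 2668 and 2905 against 1263 and 1309 (2.17-fold lower), and the immunoproteasome subunit PSMB8 was 1.5-fold lower. B2M, the class I light chain, was 1.26-fold higher (highest adjusted p = 0.205 when CD64 array 2 was left out) as deposited and not called after quantile normalization (adjusted p = 0.594).

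NF-kappaB is the factor family that Fc receptors and Toll-like receptors activate to switch on inflammatory genes, and its called members and targets were mostly lower in CD64, unlike the targets CXCL8 and CXCL2. Of 20 subunit and feedback genes, 6 were lower and 1 higher, and of 30 target genes 9 were lower and 1 higher, with medians of -0.34 and -0.50; median centring left 4 and 1 of the former and 6 and 3 of the latter. Of all probe sets 12.5% were lower; the subunit list had 3 to 5 lower with 1 array left out, fewest without CD32 array 2, and the target list 6 to 8 lower with 1 array left out, fewest without CD32 array 2. NFKB2, the p100 precursor, read 283 and 256 on the CD32 arrays and 108 and 39.3 on the CD64 arrays (4.14-fold lower, -2.05 ± 0.438 SE), with the 2 CD64 values far apart. The deubiquitinase TNFAIP3 (A20), which ends NF-kappaB signals, read 1183 and 1249 against 724 and 682 (1.73-fold lower). NFKB1 read 615 and 701 against 394 and 393 (1.67-fold lower). RELA was 1.72-fold lower (highest adjusted p = 0.0551 when CD32 array 2 was left out) and the inhibitor NFKBIA 1.46-fold lower (highest adjusted p = 0.0709 when CD64 array 2 was left out). CHUK, a kinase of the IKK complex, was 1.91-fold higher (highest adjusted p = 0.196 when CD32 array 2 was left out). Among targets, the adhesion molecule ICAM1 read 1514 and 1486 against 596 and 583 (2.55-fold lower, -1.35 ± 0.106 SE), with almost no spread within either group. CD83, a maturation marker of dendritic cells, was 2.17-fold lower, KYNU, a tryptophan-degrading enzyme, 2.44-fold, and TNFAIP2 2.06-fold. BCL2A1, a survival protein of the BCL2 family, was the target that was higher, at 1421 and 1264 against 2389 and 1981 (1.62-fold). TRAF1, an adaptor, and STX11, a fusion protein of granules, were dim: at least 2.45-fold (highest adjusted p = 0.0996 when CD64 array 2 was left out) and at least 3.55-fold lower (highest adjusted p = 0.0684 when CD32 array 2 was left out).

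Of 25 cytokine genes tested, 5 were lower and 0 higher, also with any 1 array left out and after quantile normalization, and 4 and 1 after median centring. At an unadjusted p under 0.05 they were 8 and 2. IL1RN, the interleukin 1 receptor antagonist, read 1238 and 1007 on the CD32 arrays and 305 and 359 on the CD64 arrays (3.38-fold lower, -1.76 ± 0.151 SE). TNFSF10 (TRAIL), a death ligand and interferon target, read 805 and 793 against 249 and 232 (3.32-fold lower). TGFB1 read 1851 and 1785 against 690.5 and 818 (2.42-fold lower). IL1B, a main inflammatory cytokine, read 424 and 416 against 253 and 275 (1.59-fold lower), and IL16 (1.86-fold lower).

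Genes of the amino acid response, which the factor ATF4 switches on when amino acids run short or translation is stressed, were the other large group that was lower in CD64. Of 40 tested, 22 were lower and 1 higher, a share of 55.0% against 12.5% of all probe sets, with a median of -0.61. After quantile normalization 20 were lower and 0 higher, after median centring 15 and 1, and with 1 array left out between 15 and 20 were lower. TRIB3, a pseudokinase and ATF4 target, read 3259 and 3225 on the CD32 arrays and 1008 and 1268 on the CD64 arrays (2.87-fold lower, -1.52 ± 0.11 SE). PSAT1, an enzyme of serine synthesis, read 1666 and 1533 against 454 and 622 (3.01-fold lower). PHGDH, the first enzyme of that path, read 2269 and 2015 against 1377 and 1233 (1.64-fold lower). ATF3, a stress-induced factor, read 511 and 321 against 141 and 146 (2.83-fold lower). ATF4 itself read 5185 and 4841 against 3182 and 3343 (1.54-fold lower). Members of the list that were called lower included the amino acid transporters SLC1A4, by 2.63-fold, the light and heavy chain of a leucine transporter, SLC7A5 and SLC3A2, by 2.2-fold and 2.31-fold, and the cystine transporter SLC7A11 by 1.69-fold. They also included transfer RNA synthetases: SARS1, at 1328 and 1169.6 against 611 and 693 (1.92-fold lower), GARS1 1.7-fold, AARS1 1.69-fold, TARS1 1.63-fold and WARS1, which interferon gamma also induces, 1.55-fold lower. ASNS, asparagine synthetase, read 138 and 214 against 68.2 and 69.5 (2.5-fold lower, highest adjusted p = 0.145 when CD32 array 2 was left out). MTHFD2, a mitochondrial folate enzyme, was the member that was higher (1.26-fold, highest adjusted p = 0.103 when CD32 array 2 was left out), and it was not called after quantile normalization.

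The ASNS promoter is shown because its C/EBP-ATF response element is the textbook site of the amino acid response; it is the 250 bases before the start in RefSeq (GRCh38.p14) of the transcript whose window held the element, with the match to TGATGNAA in capitals.
ASNS (chr7:97872409-97872658, minus strand): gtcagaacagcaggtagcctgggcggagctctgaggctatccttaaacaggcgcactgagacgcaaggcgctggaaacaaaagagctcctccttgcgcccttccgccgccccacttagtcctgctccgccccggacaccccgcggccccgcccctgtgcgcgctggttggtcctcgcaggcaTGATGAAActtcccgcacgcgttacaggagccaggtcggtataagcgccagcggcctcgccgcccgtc

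The match begins 68 bases before the start. Of 36 promoters of 20 of the 22 lower genes of this list, 10 held the letters on either strand, or 27.8%. The share was 3.62% of all promoters, 2.62% of those of genes tested and 3.1% of those of all genes called lower in CD64. The list holds known genes of this response and its uncalled members were not compared, so its share does not bear on the receptor difference.

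In the unfolded protein response, which endoplasmic reticulum chaperones serve, the counts were small: of 27 genes, 3 were lower and 2 higher, and 1 lower and 3 higher after median centring (1 to 2 lower with 1 array left out, fewest without CD32 array 1 or CD32 array 2; 1 to 2 higher with 1 array left out, fewest without CD32 array 1 or CD32 array 2 or CD64 array 1). As deposited, 11.1% were lower and 7.41% higher, near the 12.5% and 8.34% of all probe sets. DNAJB9, a chaperone of that compartment, read 1547 and 1559 against 789 and 654 (2.16-fold lower, -1.11 ± 0.108 SE). SSR3, of the translocon, read 377 and 368 against 213 and 214 (1.75-fold lower, highest adjusted p = 0.0596 when CD32 array 1 was left out). For SSR1, another translocon protein, the probe sets disagree: 1 was 1.85-fold higher (highest adjusted p = 0.0519 when CD64 array 2 was left out) and the other was not called (-0.055, adjusted p = 0.771). Among 39 heat shock genes, 7 were higher and 5 lower, 13 and 4 after median centring (2 to 4 lower with 1 array left out, fewest without CD32 array 1 or CD32 array 2). HSPA6, a strictly inducible HSP70, read 160.4 and 220.4 on the CD32 arrays and 569 and 603 on the CD64 arrays (3.12-fold higher, 1.64 ± 0.292 SE). The chaperones HSPH1 (1042 and 1383 against 3062 and 2435, 2.28-fold) and HSP90AA1 (2934 and 3069.7 against 5970.1 and 5633, 1.93-fold) and the mitochondrial HSPA9 (1.81-fold) were higher with it. The cochaperones CDC37 (1.93-fold), DNAJC7 (2.38-fold, highest adjusted p = 0.0595 when CD32 array 2 was left out) and DNAJB2 (at least 3.25-fold, not tested without CD32 array 1 or without CD32 array 2) were lower.

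In the oxidative stress list, with targets of the factor NRF2, 8 of 41 genes were higher and 6 lower, and 14 and 3 after median centring (4 to 8 higher with 1 array left out, fewest without CD32 array 2 or CD64 array 2). TXNIP, the inhibitor of thioredoxin, read 3708 and 3555 on the CD32 arrays and 1039 and 1059 on the CD64 arrays (3.46-fold lower, -1.79 ± 0.0898 SE). TXN, thioredoxin itself, read 3779 and 4009 against 6784 and 6625 (1.72-fold higher). The 2 genes thus differed in opposite directions, each with little spread within a group. NQO1, a quinone reductase, read 426 and 459.9 against 971 and 961 (2.18-fold higher). HMOX1, heme oxygenase, was 1.77-fold higher (highest adjusted p = 0.14 when CD64 array 2 was left out), and EPHX1, an epoxide hydrolase, 3.43-fold lower (highest adjusted p = 0.0871 when CD32 array 1 was left out). Of 5 genes in the metallothionein list, the factor MTF1 included, 3 were higher and 1 lower: MT1X, which binds zinc and copper, read 5484 and 5378 against 9228 and 9655 (1.74-fold higher; its other probe set gave a log2 difference of 1.16). MT1H was 1.51-fold higher, MT2A 1.32-fold higher (highest adjusted p = 0.185 when CD64 array 2 was left out), and the factor MTF1 1.86-fold lower (highest adjusted p = 0.17 when CD64 array 2 was left out). Metallothionein genes are near copies of each other, so their probe sets may read more than 1 gene.

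Cell division genes were higher after CD64 than after CD32 cross-linking. Of 45 mitosis and G2/M genes, 22 were higher and 1 lower, a share of 48.9% against the 8.34% of all probe sets that were higher, with a median of 0.49. Higher calls were more frequent among bright probe sets, at 411 of 1712 in the brightest bin and 8 of 1713 in the dimmest. The 8.34% is not matched to the signal of this list. The counts were 22 and 1 after quantile normalization and 24 and 0 after median centring, and between 16 and 18 were higher with 1 array left out. TOP2A, the topoisomerase that untangles chromosomes, read 1385 and 1149.7 on the CD32 arrays and 2574 and 2644 on the CD64 arrays (2.07-fold higher, 1.05 ± 0.104 SE). CDK1, the kinase that starts mitosis, read 1386 and 1162 against 2992 and 2365 (2.1-fold). MAD2L1, of the spindle checkpoint, read 1027 and 900.2 against 2490.1 and 1747 (2.17-fold). The checkpoint kinase TTK read 564 and 582 against 1114 and 1109 (1.94-fold). CCNA2, cyclin A2, read 1035 and 950.5 against 1882 and 1672 (1.79-fold). Both CD64 arrays lay above both CD32 arrays for these genes, as in every call of a higher gene. CDC20, an activator of the anaphase complex, was the member that was lower (1.37-fold, highest adjusted p = 0.1 when CD64 array 1 was left out). Of 57 DNA replication genes 15 were higher and 3 lower, 15 and 0 after quantile normalization (9 to 11 higher with 1 array left out, fewest without CD32 array 2 or CD64 array 1; 0 to 2 lower with 1 array left out, fewest without CD32 array 1 or CD64 array 1). RRM2, the regulated subunit of ribonucleotide reductase, read 4845 and 5247 against 9153 and 9789 (1.88-fold higher). DBF4, which activates the replication kinase CDC7, read 686 and 833 against 1196 and 1710.3 (1.89-fold). DCK, which salvages deoxycytidine, read 424 and 578 against 1365 and 905 (2.24-fold). PCNA, the sliding clamp, read 3067 and 2485 against 4729 and 4462 (1.66-fold).

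Genes that set the pace of G1 moved in both directions. MYC, a driver of growth and division, read 411 and 516 on the CD32 arrays and 1158 and 1347 on the CD64 arrays (2.71-fold higher, 1.44 ± 0.151 SE). CDKN1A (p21), which stops cyclin-dependent kinases, read 323 and 461 against 118 and 171 (2.72-fold lower, -1.44 ± 0.231 SE). MYC was thus called higher and CDKN1A lower in CD64. RB1 was 1.77-fold higher, CCNE2 (cyclin E2) 1.84-fold higher (highest adjusted p = 0.0908 when CD32 array 2 was left out), CCND3 (cyclin D3) 1.72-fold lower, TFDP1, the partner of E2F factors, 1.84-fold lower, and MXD1, an antagonist of MYC, 2.72-fold lower (highest adjusted p = 0.107 when CD32 array 1 was left out). Of 26 G1 genes 4 were higher and 5 lower as deposited, and 6 and 3 after quantile normalization or median centring (2 to 4 lower with 1 array left out, fewest without CD32 array 1). Of 24 inhibitor and p53 target genes 4 were higher and 1, CDKN1A, lower (2 higher with any 1 array left out). CCNG1 (cyclin G1) read 2795 and 2816 against 5016 and 5102 (1.8-fold higher). Of 21 histone genes 3 were higher and 0 lower (5 and 0 at an unadjusted p under 0.05; 0 to 2 higher with 1 array left out, fewest without CD64 array 2). H1-2 read 113 and 79.3 against 232 and 434 (log2 difference 1.75 ± 0.409 SE, adjusted p = 0.0135, highest adjusted p = 0.102 when CD64 array 2 was left out), H4C11 at least 2.99-fold higher (not tested without CD64 array 1 or without CD64 array 2), and H2AC6 1.89-fold higher (highest adjusted p = 0.144 when CD32 array 1 was left out). Histone messages mostly lack poly(A) tails and their genes are near copies, so these values are uncertain.

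The TOP2A promoter is shown because CCAAT boxes are the textbook elements of mitotic genes; it is the 250 bases before the start in RefSeq (GRCh38.p14), with matches to CCAAT on either strand in capitals, all of which lie on the opposite strand and so read ATTGG.
TOP2A (chr17:40417897-40418146, minus strand): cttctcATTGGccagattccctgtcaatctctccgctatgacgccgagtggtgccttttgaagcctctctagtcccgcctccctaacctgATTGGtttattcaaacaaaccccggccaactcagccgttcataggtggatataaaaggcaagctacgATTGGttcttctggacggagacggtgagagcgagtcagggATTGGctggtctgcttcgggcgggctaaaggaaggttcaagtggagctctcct

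The 4 matches begin 244, 160, 93 and 53 bases before the start. Of 22 promoters of 18 of the 22 higher mitosis genes, 18 held CCAAT, or 81.8%, against 34.6% of all promoters and 34.7% of those of genes tested. TTTGAA, the letters of the cell cycle homology region, was in 14, or 63.6%, against 15.2% and 11.8%. Of the promoters of all genes called higher in CD64, 38.7% held CCAAT and 12.8% TTTGAA. The list holds known mitosis genes and its uncalled members were not compared, so its shares do not bear on the receptor difference.

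Subunits of the mitochondrial respiratory chain and ATP synthase were higher in CD64. Of 59 oxidative phosphorylation genes tested, 32 were higher and 0 lower, or 54.2%, with a median of 0.40. The share of all probe sets, 8.34%, is not matched to the signal of this list either. At an unadjusted p under 0.05 the counts were 34 and 2. After quantile normalization 21 were higher and 1 lower, after median centring 38 and 0, with 15 to 25 higher with 1 array left out, fewest without CD32 array 2. NDUFA6, of complex I, read 2185 and 1885 on the CD32 arrays and 3740.0 and 4169 on the CD64 arrays (1.95-fold higher, 0.96 ± 0.103 SE). UQCRQ, of complex III, read 1393 and 1265 against 2463 and 2333 (1.81-fold). SDHD, of complex II, read 1198 and 1124 against 2069 and 1892 (1.7-fold). COX6C, of complex IV, read 5601 and 6057 against 10165 and 9696 (1.7-fold). ATP5PF, of the ATP synthase, read 3336 and 3025 against 5482 and 4654 (1.59-fold). Complexes I to IV and the ATP synthase thus each had members called higher in CD64. The NRF1 site (GCGCA, any base, GCGC on either strand), NRF1 being a factor for many of these genes, was in 5 of 38 promoters of 28 of the 32 genes, or 13.2%, against 5.78% of all promoters and 7.74% of those of genes tested, and in 13.3% of the promoters of all genes called higher in CD64.

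Genes of protein synthesis gave counts that rest on the scaling. Of 48 cytoplasmic ribosomal protein genes 10 were higher and 0 lower as deposited, with a median of 0.24, but 4 and 0 after quantile normalization, with a median of 0.031, and 26 and 0 after median centring; at an unadjusted p under 0.05 the deposited values gave 24 and 0 (4 to 9 higher with 1 array left out, fewest without CD32 array 1). RPS29 read 10550.0 and 11380.0 on the CD32 arrays and 16519 and 20868 on the CD64 arrays (1.69-fold higher). RPL36AL read 2823 and 2539 against 4603 and 4396 (1.68-fold), and both kept the call after quantile normalization. RPL31 was 1.58-fold higher (highest adjusted p = 0.139 when CD64 array 1 was left out) through 1 probe set and not called through another (0.11, adjusted p = 0.8). Of 30 ribosome assembly genes 7 were higher and 0 lower (10 and 2 at an unadjusted p under 0.05), 5 and 0 after quantile normalization (3 to 4 higher with 1 array left out, fewest without CD32 array 1 or CD32 array 2). WDR3, of the small subunit processome, read 233 and 229 against 482 and 617 (2.36-fold higher). UTP14A, of the same complex, read 169 and 183 against 436 and 374 (2.3-fold higher, highest adjusted p = 0.0507 when CD64 array 1 was left out). Among 70 splicing genes 17 were higher and 10 lower, 13 and 10 after quantile normalization and 25 and 4 after median centring (8 to 11 higher with 1 array left out, fewest without CD32 array 2; 6 to 7 lower with 1 array left out, fewest without CD32 array 1 or CD32 array 2). HNRNPH1, which binds G-rich RNA, read 2063 and 1690.2 against 4400.0 and 4021 (2.25-fold higher). HNRNPC read 2232 and 2052 against 4063 and 4033 (1.89-fold higher). SRSF11 read 1899 and 2161 against 3363 and 5585 (2.14-fold higher), while SRSF1 (1.85-fold), SRSF6 (1.61-fold) and SF1 (1.94-fold) were lower. Of 37 proteasome genes 6 were higher and 6 lower, and 9 and 4 after median centring (3 to 4 higher with 1 array left out, fewest without CD64 array 2). PSMC6 of the ATPase ring was 1.84-fold higher, PSMD1 of the regulatory particle 1.72-fold lower, and PSMD3 2.12-fold lower (highest adjusted p = 0.0641 when CD32 array 1 was left out).

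Metabolic genes were called in both directions, beside 8.34% higher and 12.5% lower of all probe sets. The shares higher and lower were 8.33% and 8.33% for glycolysis genes and 0% and 7.41% for lipid handling genes. They were 13.6% and 18.2% for hypoxia genes and 8.33% and 29.2% for cholesterol genes. Counts near or under the shares of all probe sets are no result about a list. PKM, the pyruvate kinase of glycolysis, read 7598 and 7765 on the CD32 arrays and 3118 and 3363 on the CD64 arrays (2.37-fold lower, -1.25 ± 0.0998 SE). HK2, the hexokinase that starts glycolysis, read 509.7 and 540.0 against 1271 and 1019 (2.17-fold higher, 1.12 ± 0.165 SE). The enzymes at the start and the end of glycolysis thus differed in opposite directions, and of 24 glycolysis genes 2 were higher and 2 lower (1 and 4 after quantile normalization, 4 and 1 after median centring; 1 to 2 higher with 1 array left out, fewest without CD32 array 2 or CD64 array 2; 1 to 3 lower with 1 array left out, fewest without CD32 array 1 or CD64 array 1). PGAM1 was 1.37-fold higher (highest adjusted p = 0.072 when CD64 array 2 was left out) and not called after quantile normalization. Among 22 hypoxia genes 3 were higher and 4 lower (5 and 1 after median centring; 1 to 2 lower with 1 array left out, fewest without CD32 array 1 or CD32 array 2 or CD64 array 1). BNIP3, a mitophagy receptor, read 1695 and 1516 against 3269 and 3101 (1.99-fold higher). GYS1, glycogen synthase, read 640.1 and 664 against 327 and 324 (2-fold lower). EPAS1 (HIF-2 alpha) was 1.63-fold lower (highest adjusted p = 0.0732 when CD32 array 1 was left out). Of 24 cholesterol genes 7 were lower and 2 higher as deposited, 5 and 2 after quantile normalization and 2 and 4 after median centring (2 to 5 lower with 1 array left out, fewest without CD32 array 2 or CD64 array 2; 1 higher with any 1 array left out). SC5D, a late sterol enzyme, read 1073 and 1020.3 against 424 and 421 (2.48-fold lower). DHCR7, which makes cholesterol in the last step, read 1770.5 and 1744 against 1158 and 1139 (1.53-fold lower). FASN, fatty acid synthase, was 1.72-fold lower (highest adjusted p = 0.168 when CD32 array 2 was left out). HMGCS1, at the start of the pathway, was 1.88-fold higher (highest adjusted p = 0.104 when CD64 array 1 was left out). Of 27 lipid handling genes 2 were lower, RXRA, the partner of nuclear receptors (622 and 562 against 298 and 298, 1.98-fold), and PLTP (1.59-fold, highest adjusted p = 0.0573 when CD32 array 2 was left out), and 0 higher (5 and 3 at an unadjusted p under 0.05), against 1 and 5 after median centring.

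Of 5 genes of Fc receptors and their signal chain 3 were lower and 0 higher, 2 and 0 after quantile normalization, and 1 and 0 after median centring or with any 1 array left out. FCGR2A, which encodes CD32A, read 609 and 706 on the CD32 arrays and 616 and 596 on the CD64 arrays and was not called (-0.11, adjusted p = 0.616). FCGR3B, a low-affinity receptor of neutrophils, read 66.6 and 95.4 against 53.2 and 80.6 and was not called either (-0.28, adjusted p = 0.712). The groups overlapped for both genes. FCGR2B, the inhibitory CD32B, read 664 and 651 against 476 and 463 (1.4-fold lower, highest adjusted p = 0.0857 when CD32 array 1 was left out), and after quantile normalization it was not called (adjusted p = 0.0817). FCER1G, the gamma chain of CD64, read 3593 and 3396 against 2734 and 2859.6 (1.25-fold lower, highest adjusted p = 0.144 when CD32 array 1 was left out). FCGRT, which carries IgG through cells and protects it from breakdown, read 756 and 722 against 373 and 286 (2.26-fold lower, -1.18 ± 0.157 SE). The FCGR genes are near copies of each other, and the probe set for CD64 is annotated to several genes, so no CD64 level is given. Of 46 kinases, phosphatases and adaptors below Fc receptors 6 were lower and 2 higher, and 3 and 5 after median centring (3 to 4 lower with 1 array left out, fewest without CD32 array 1 or CD32 array 2; 0 to 1 higher with 1 array left out, fewest without CD32 array 2 or CD64 array 1). CDC42, the GTPase that shapes phagocytic cups, read 1523 and 1874 against 919.6 and 767 (2.01-fold lower). WAS, its effector on actin, was 1.54-fold lower, PRKCB, a protein kinase C, 1.52-fold lower, INPP5D (SHIP1), the phosphatase that CD32B recruits, 1.51-fold lower (highest adjusted p = 0.137 when CD64 array 1 was left out), CRKL, an adaptor, 2.08-fold lower (highest adjusted p = 0.189 when CD32 array 1 was left out), and LCP2 (SLP-76), an adaptor, 1.97-fold higher (highest adjusted p = 0.123 when CD64 array 1 was left out).

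The counts of the lists of phagocyte function are read against the 12.5% of all probe sets that were lower, and are given also after median centring. CYBB, the catalytic subunit of the NADPH oxidase, read 1035 and 1054 on the CD32 arrays and 392 and 333 on the CD64 arrays (2.89-fold lower, -1.53 ± 0.155 SE). Of 8 oxidase genes 3 were lower and 1, RAP1A (1.52-fold), higher, and 1 and 1 after median centring (1 to 3 lower with 1 array left out, fewest without CD32 array 1 or CD32 array 2 or CD64 array 1). NCF4, a cytosolic subunit, was 1.52-fold lower (highest adjusted p = 0.144 when CD64 array 1 was left out). Of 21 chemoattractant receptors 7 were lower and 3 higher (5 and 4 after median centring; 4 to 5 lower with 1 array left out, fewest without CD32 array 1 or CD64 array 1). The C5a receptor C5AR1 read 289.5 and 349 against 90.1 and 96.2 (3.41-fold lower). The C3a receptor C3AR1 read 690.3 and 885 against 354 and 406 (2.06-fold lower). CCR1, a chemokine receptor, read 899.7 and 911 against 490.1 and 507 (1.82-fold lower). CCRL2, an atypical receptor, was 2.47-fold lower (highest adjusted p = 0.249 when CD32 array 2 was left out), with 1 CD64 array under the floor, so that its fold depends on the floor. PTGER4, a prostaglandin receptor (2.04-fold), and GPR183, an oxysterol receptor (1.73-fold), were higher. Complement component C2 read 1016 and 648 against 307 and 365 (2.42-fold lower), and of 20 complement genes 5 were lower and 1 higher (3 and 2 after median centring). Integrins and adhesion genes counted 9 lower and 1 higher of 28, and 5 and 2 after median centring: ITGB2 (CD18) read 6043 and 5364 against 3214 and 3640.0 (1.66-fold lower). Its partner ITGAM (CD11b) was 1.51-fold lower (highest adjusted p = 0.0609 when CD32 array 1 was left out), ICAM3 1.97-fold lower, LGALS9 2.01-fold lower (highest adjusted p = 0.111 when CD64 array 2 was left out), and CD47, a signal against phagocytosis, 1.57-fold higher.

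Matrix and protease genes counted 12 lower and 5 higher of 37, and 8 and 8 after median centring (2 to 5 higher with 1 array left out, fewest without CD64 array 2). SERPINA1, alpha-1 antitrypsin, read 1361 and 1479.6 against 563 and 598 (2.44-fold lower, -1.29 ± 0.102 SE). TIMP1 was 1.41-fold lower and MMP2 1.83-fold lower. MMP25 was 3.19-fold lower (highest adjusted p = 0.0576 when CD32 array 2 was left out) through 1 probe set and not called through another (-0.023, adjusted p = 0.977). Of 58 lysosome genes 13 were lower and 3 higher as deposited and 3 and 9 after median centring, so the direction of this group rests on the scaling; it had 5 to 12 lower with 1 array left out, fewest without CD64 array 1; 0 to 2 higher with 1 array left out, fewest without CD32 array 2. Cathepsin D, CTSD, read 919 and 842 against 459.6 and 511 (1.82-fold lower). ATP6V1B2, a proton pump subunit, read 4599 and 4268 against 2812 and 2751 (1.59-fold lower). GAA, which breaks down glycogen, was 1.77-fold lower (highest adjusted p = 0.106 when CD64 array 1 was left out), and IDUA 1.84-fold lower (highest adjusted p = 0.171 when CD32 array 1 was left out). Of 46 monocyte and macrophage markers 13 were lower and 2 higher, and 8 and 4 after median centring (7 to 11 lower with 1 array left out, fewest without CD32 array 1). CHI3L1, a chitinase-like protein of macrophages, read 816 and 724 on the CD32 arrays and 242 and 196 on the CD64 arrays (3.53-fold lower, -1.82 ± 0.152 SE). SPI1 (PU.1), the myeloid master factor, read 313 and 349.9 against 98.2 and 126 (2.98-fold lower). CD4, which monocytes also carry, read 1439.5 and 1178 against 518 and 600.0 (2.34-fold lower). The summed signal of the 11 line markers was 16852 and 15593 in CD32 and 12038 and 12599 in CD64. ITGB2, the brightest of them at 6043 and 5364 against 3214 and 3640, made up the largest part of the gap in the sum. By fold, SPI1 and CD4 were lower than ITGB2, and the markers were not all lower in CD64. PTPRC (CD45) read 2554 and 2300 against 2949 and 2673. TYROBP read 1537 and 1588 against 1444 and 1627, and the groups overlapped for it and for FCGR2A. The part of the summed signal in the other results was not tested. Of 25 granule and immature myeloid genes 3 were lower, among them the granule protease PRTN3 (1572 and 1361 against 715 and 733, 2.02-fold) and CAMP (2.22-fold, highest adjusted p = 0.0737 when CD32 array 2 was left out), and 3 higher, among them IGFBP7 (628 and 542 against 1456 and 1289, 2.35-fold). Of 22 Toll-like receptor and inflammasome genes 3 were lower and 0 higher (1 and 2 after median centring; 5 and 2 at an unadjusted p under 0.05; 0 to 3 lower with 1 array left out, fewest without CD64 array 1). NLRP3 was 2.51-fold lower (highest adjusted p = 0.0814 when CD32 array 2 was left out), LY86 1.59-fold lower (highest adjusted p = 0.068 when CD64 array 1 was left out) and CASP1 1.58-fold lower (highest adjusted p = 0.124 when CD64 array 1 was left out).

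Immediate early factors, which receptors induce within minutes, counted 4 higher and 6 lower of 40 as deposited, and 5 and 3 after quantile normalization (2 higher with any 1 array left out; 2 to 4 lower with 1 array left out, fewest without CD32 array 2). Beside MYC and ATF3, KLF10 read 1104 and 1112 against 617 and 515 (1.97-fold lower). HES1 was 2.12-fold lower (highest adjusted p = 0.139 when CD32 array 2 was left out) with 1 CD64 array under the floor, and ZFP36L2, an RNA-binding protein, 1.53-fold higher. Of 13 genes that damp MAP kinases 3 were lower and 0 higher (4 and 0 at an unadjusted p under 0.05; 1 to 3 lower with 1 array left out, fewest without CD32 array 2). DUSP5, a phosphatase of ERK, read 882 and 1075 on the CD32 arrays and 365 and 395 on the CD64 arrays (2.56-fold lower, -1.36 ± 0.151 SE). TRIB1 was 2.47-fold lower (highest adjusted p = 0.0693 when CD32 array 2 was left out) and DUSP22 1.56-fold lower (highest adjusted p = 0.131 when CD32 array 2 was left out). Of 40 BCL2 and IAP family genes 3 were higher and 5 lower (6 and 1 after median centring; 1 to 3 lower with 1 array left out, fewest without CD64 array 2). MCL1, a short-lived survival protein, read 2613 and 1946 against 3888 and 5080.1 (1.97-fold higher), BIRC2 (cIAP1) was 1.54-fold lower and CASP9 1.98-fold lower (highest adjusted p = 0.203 when CD32 array 2 was left out). As deposited, the shares of the immediate early and BCL2 and IAP lists were near the 8.34% higher and 12.5% lower of all probe sets. Counts near these shares are no result about a list.

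Markers of other cell types gave 1 call each way. Of 13 T cell markers on the array 4 were above the floor on all 4 arrays, with summed signals of 553 and 806 in CD32 and 685 and 647 in CD64, and 1 was above it on 0 arrays. Of 12 B cell markers 3 were above the floor on all 4 arrays and 4 on 0, with sums of 380.3 and 639.6 against 592 and 389. Of 7 T cell and 4 B cell markers tested limma called 0, and 0 had an unadjusted p under 0.05. NKG7, a natural killer cell gene, was 1.27-fold lower (highest adjusted p = 0.114 when CD32 array 1 was left out) at 1878 and 1784 against 1471 and 1409, and of 13 natural killer markers 3 were above the floor on all 4 arrays, with sums of 2554 and 2267 against 1926 and 1834, most of it NKG7. The part of these cell types in the other results was not tested. HBB, beta globin, was 2.11-fold higher (highest adjusted p = 0.0614 when CD64 array 2 was left out) at 210.4 and 187 against 378 and 464, with sums over 8 erythroid and platelet markers of 569.5 and 757 against 959.7 and 829.8. Of 15 epithelial and fibroblast markers, 4 were above the floor on all 4 arrays, with sums of 657 and 744 against 676 and 501, and KRT19 and CDH1 were under it on each array.

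The arrays of 6 h, which share no array with those of 2 h, show what became of these differences. Both times were tested in the same fit with a shared spread per probe set. Calls at 2 h and at 6 h are therefore not independent tests. At 6 h, 863 probe sets, or 12.6%, were higher in CD64 and 658, or 9.61%, lower. Of the 571 that were higher at 2 h, 210 were called higher again at 6 h, or 36.8%, and 55 were called lower, or 9.63%. Of the 855 that were lower at 2 h, 236 were called lower again, or 27.6%, and 101 higher, or 11.8%. The median difference of the former went from 0.67 to 0.30 and that of the latter from -0.84 to -0.15; since these probe sets were chosen at 2 h, some fall toward 0 follows from the choice. The receptor by time interaction, the test of whether the difference changed, was called with a fall for 5.87% of all probe sets and with a rise for 9.17%. A fall was called for 194 of the 571 (34.0%), and a rise for 334 of the 855 (39.1%). The interaction subtracts the 2 h difference by which these probe sets were chosen, so the choice itself raises these 2 shares. How far they exceed those of all probe sets is therefore no result.

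The difference in CXCL8 shrank by 6 h. Its signals at 6 h were 1013 and 952 on the CD32 arrays and 833 and 786 on the CD64 arrays, a difference of -0.28 that was not called (adjusted p = 0.0953), and the interaction was -3.52 (adjusted p = 3.97e-06). Both CD32 arrays were then slightly above both CD64 arrays. CXCL2 read 150.5 and 171 against 255 and 146 at 6 h, not called (0.27, adjusted p = 0.648), with an interaction of -2.49 (adjusted p = 0.00701).

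Several interferon-stimulated genes turned around. IFIT1 read 459 and 546 on the CD32 arrays and 4416 and 3934 on the CD64 arrays at 6 h, 3.06 in favour of CD64 after -1.43 at 2 h (interaction 4.49, adjusted p = 1.13e-05). RIGI went from -1.20 to 2.33 (interaction adjusted p = 0.00117), IFIT5 from -1.45 to 2.21 (0.00229), and IFIT3 from -1.27 to 2.09 (0.000154). At 6 h, 15 of the 63 genes of the list were higher in CD64 and 9 lower, with a median of 0.13. CXCL9 and CXCL10 stayed lower, at -0.81 and -0.75 at 6 h, and neither interaction was called (adjusted p = 0.537 and 0.543). Outside this list, CX3CR1 went from -2.51 to 1.19 (interaction 3.70, adjusted p = 0.000151), TNFAIP6 from -2.44 to 1.56 (adjusted p = 7.04e-05) and IL1RN from -1.76 to 1.39 (adjusted p = 4.88e-05). For CX3CR1 the 6 h signals were 302 and 242 against 582 and 656, so the CD64 arrays were then the higher ones.

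Other groups kept or lost their difference. CD74 was -1.84 at 6 h after -1.66 at 2 h, TAPBP -1.35 after -1.11, TGFB1 -1.28 after -1.27, IL2RG -1.09 after -1.39 and ICAM1 -1.01 after -1.35, all called at both times and without a called interaction. HLA-DRA went from -1.34 to 0.42, with a called interaction (adjusted p = 0.000154). Among the amino acid response genes, TRIB3 went from -1.52 to 0.25 (interaction adjusted p = 0.000154) and PSAT1 from -1.59 to 1.18 (7.04e-05), while ATF3 and ATF4 stayed lower at -1.39 and -0.51; the list counted 8 higher and 7 lower at 6 h. Mitosis genes counted 5 higher and 6 lower at 6 h, with TOP2A at -0.37 (interaction adjusted p = 0.000332), and oxidative phosphorylation genes 19 higher and 7 lower. Ribosomal protein genes were 2 higher and 38 lower at 6 h. PKM widened from -1.25 to -2.53 (interaction adjusted p = 0.000466), and HMGCS1 went from 0.91 to -2.22 (0.000279). The brightest signals were lower on the CD64 6 h arrays, with maxima of 14536 and 15868 against 36978 and 37994 on the CD32 6 h arrays. The mean log2 signal of the added bacterial transcripts was 9.63 and 9.58 against 12.6 and 12.6. In the same order, actin probes at the 3' end over those at the 5' end gave 1.16 and 1.08 against 2.01 and 1.97. For GAPDH this ratio was 0.890 and 0.873 against 1.19 and 1.15. The part of these values in the differences at 6 h was not tested.

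**Figure D3:**
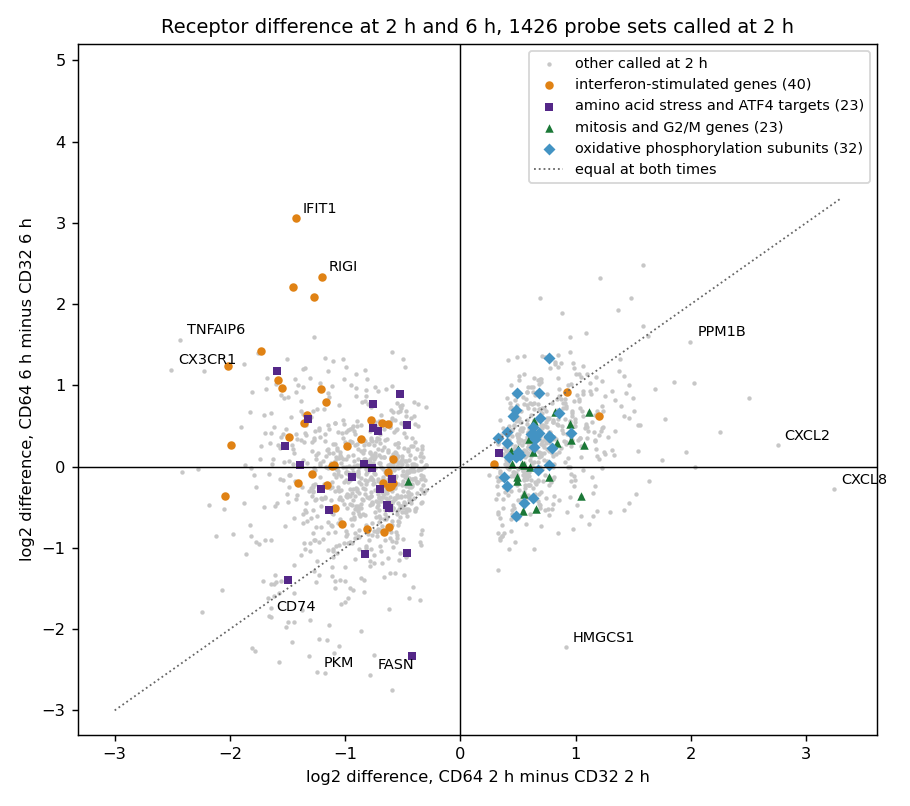
Log2 difference of CD64 minus CD32 at 6 h (y axis) against that at 2 h (x axis) for the 1426 probe sets called at 2 h; orange circles are interferon-stimulated genes, violet squares amino acid stress genes, green triangles mitosis genes, blue diamonds oxidative phosphorylation genes, and the dotted line marks equal differences. Orange points reach far up on the left side, with IFIT1 at -1.43 and 3.06, and CXCL8 lies far to the right near 0 on the y axis.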

How the data were processed

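RNA of U937 cells was measured on 1-colour oligonucleotide arrays, and the deposited values are linear signal intensities per probe set, 1 table for all 10 arrays. The trimmed means of the arrays are equal, so the authors deposited intensities already scaled; the software and its settings are not given in the sources used here. Of 8746 probe sets other than controls, 7840 have 1 symbol, 388 several and 518 none in the platform annotation, and only those with 1 symbol are named. Groups were taken from the titles. Signals were floored, log2-transformed and fitted with limma 3.58.1 (R 4.3.3) with 1 mean per group on the 8 cross-linked arrays, with a variance trend and two-sided tests; the fit was tested on simulated data. Alternatives changed the normalization, the floor, the filter, the variance model and the arrays in the fit; a block for first and duplicate arrays was added after seeing the data.

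Named genes are the 15 highest and 15 lowest called, up to 3 called genes of largest difference in each of 46 lists, the Fc receptor list and the 6 largest interactions. The highest, the lowest and the list genes were picked among calls whose 2 h arrays did not overlap between the groups, which every call met. The other genes named in a list were chosen after their values were seen. The comparison and the lists were chosen with earlier results of these data known. The number of arrays limits the precision. Promoters come from RefSeq (GRCh38.p14), matched by symbol for 4978 of 6054 genes tested.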

Additional observations from a re-analysis of the deposited data

Results flagged for a closer look

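The results below were picked out because the difference between the receptors changed from 2 h to 6 h by the receptor by time interaction of limma (adjusted p under 0.05). Of the named genes, 68 met this, and the value after each is the log2 difference at 6 h minus that at 2 h; the arrays are 2 in each group. Since the genes were named for their 2 h difference, part of a change toward 0 follows from that choice. No cause was tested, and added bacterial transcripts and the brightest signals differed between the 6 h groups as well. So did the 3' to 5' ratios of actin and GAPDH.

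Genes that were higher in CD64 at 2 h and called lower in CD64 at 6 h were HMGCS1 (-3.14), HK2 (-1.82), MCL1 (-1.75), DBF4 (-1.48), TOP2A (-1.41), RPS29 (-1.29), CCNG1 (-1.26) and PGAM1 (-0.94). Genes that were higher at 2 h and then differed less were CXCL8 (-3.52), CXCL2 (-2.485), DIAPH3 (-2.04), HSPA6 (-1.82), CLK1 (-1.41), DR1 (-1.35), LCP2 (-1.21), BNIP3 (-1.15), GTPBP4 (-1.04), SEPHS2 (-1.001), HNRNPH1 (-0.95), MT1H (-0.82), CDK1 (-0.80), MT1X (-0.62), NDUFA6 (-0.55) and RPL36AL (-0.53). Genes lower at 2 h whose difference went further down were FASN (-1.77) and PKM (-1.28). Genes higher at 2 h whose difference went further up were CCNE2 (1.01).

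Genes that were lower in CD64 at 2 h and called higher in CD64 at 6 h were IFIT1 (4.49), TNFAIP6 (3.997), CX3CR1 (3.70), IFIT5 (3.66), RIGI (3.54), XAF1 (3.26), TNFSF10 (3.15), IL1RN (3.15), PSAT1 (2.77), CAMP (2.32), STAT3 (1.94), HLA-DRA (1.76), DUSP22 (1.59) and SSR3 (1.57). Genes that were lower at 2 h and not called higher at 6 h were TREM1 (3.40), SLAMF1 (2.40), CCRL2 (2.39), PILRA (2.35), DNAJB2 (2.33), PLSCR1 (2.25), CRKL (1.82), TRIB3 (1.77), LAMB3 (1.71), TXNIP (1.69), OAS2 (1.68), HLA-DPB1 (1.67), CYBB (1.59), C5AR1 (1.52), MTF1 (1.45), C3AR1 (1.22), CASP1 (1.12), EPAS1 (1.05), CHI3L1 (0.97), SERPINA1 (0.93), LY86 (0.90), DNAJB9 (0.86), CDC42 (0.81), FCGRT (0.80), FCGR2B (0.71), PSMB8 (0.67) and NKG7 (0.52).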

How the results depend on the processing

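The values rest on 2 arrays a group, scaled before deposit by a method not given in the sources used here, and dim probe sets carry few calls. None of the 138 called named genes turned its direction in any alternative run, but 63 lost the call in at least 1 of them: 14 after quantile normalization, 20 after median centring, 44 with no filter, 35 with no variance trend and 30 to 41 with 1 array left out.

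Median centring of each array turned the split, with 969 probe sets higher in CD64 at 2 h and 409 probe sets lower in CD64 at 2 h, against 571 and 855. No filter gave 357 probe sets higher in CD64 at 2 h; 2 h calls called the same way at 6 h were then 279, 2 h calls called the opposite way at 6 h 91, and 2 h calls with an interaction call 377. No variance trend gave 903 probe sets called at 2 h, 303 of them higher, with 203 called the same way at 6 h, 61 the opposite way and 240 with an interaction call. Quantile normalization and cyclic loess each gave 98 called the opposite way, against 156. More probe sets were tested with no filter; for the other settings the cause was not tested. The other alternatives kept these counts within 1.5 times.

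With 1 array left out, and the lone array assumed to vary like the other groups, the ranges were 821 to 947 probe sets called at 2 h, 343 to 392 higher, 478 to 570 lower, 275 to 359 probe sets called over 2-fold at 2 h, 299 to 343 called the same way at 6 h, 89 to 122 the opposite way and 291 to 402 with an interaction call. The lowest values of these counts came without CD32 array 2. The 6 h counts were not run with only the 4 arrays of 2 h. Each group has a first array and one titled Duplicate, and a replicate block on this label, an alternative added after seeing the data, gave 1431 probe sets called at 2 h, 586 higher and 845 lower, and changed the call of 1 named gene. The labels do not say that the duplicates were made together. Over probe sets, the duplicate minus first differences correlated at 0.293 between CD64 2 h and CD64 6 h. Other pairs of groups gave -0.0701 to 0.0851, with -0.0458 between CD32 2 h and CD64 2 h. Whether first and duplicate arrays share more than a label was not tested, and the main fit has no such block.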
